A study of Mus musculus with 8 samples.

Results

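The regulated exocytosis machinery is the set of proteins that tethers, primes and fuses secretory vesicles with the plasma membrane. Its genes were taken by name from the array annotation: the synaptotagmins, syntaxins, Vamp, Snap, complexin, Rims, Stxbp and Unc13 genes, the Rab3 and Rab27 genes, Syp and the Sv2 genes. This rule uses no measured value and selected 71 genes with 103 probes, of 36095 genes on the array. Each gene was represented by its brightest probe, and 64 of the 71 genes gave enough signal to be compared between groups, of 25330 genes compared in all.

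Fusion of a secretory vesicle is driven by a SNARE complex, in which a vesicle SNARE (a Vamp protein) zips together with plasma membrane SNAREs (a syntaxin and a Snap protein). Sec1/Munc18 proteins clasp the syntaxin, Unc13 and Rims proteins prepare the vesicle for fusion, complexins hold the assembled complex, and synaptotagmins are the family that contains the calcium sensors of release. The same families serve synaptic vesicles of enteric neurons, hormone granules of intestinal endocrine cells and mucin or enzyme granules of exocrine cells, while several syntaxins and Vamp proteins work at endosomes and the Golgi in every cell.

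RNA of whole small intestine was compared at stage E18.5 between 4 control embryos without a named Cre transgene and 4 mutant embryos (Rfx6 fl/fl with Ngn3-cre). Control replicates 1, 3 and 4 were Rfx6 fl/+ and control replicate 2 was Rfx6 fl/fl, so all embryos carried at least 1 floxed allele of Rfx6, a transcription factor gene of endocrine cells. Ngn3-cre acts in endocrine progenitors, a small part of the tissue, and since it is named for mutants only, effects of Cre itself and of the deletion cannot be told apart. The embryos are numbered separately in the labels, but nothing states that they came from separate litters. In such bulk RNA, fewer cells of a type and less RNA per cell cannot be told apart.

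Levels are given as the log2 processed intensity of a probe minus the log2 of the 75th percentile of its array, and differences as mutant minus control. A level of 0 is that percentile, which was 788 to 1027 intensity units across arrays. The share of probes well above background was 59.7% to 69.9%. The Rfx6 probe itself read -3.32, -3.20, -3.48 and -2.93 in controls 1 to 4 and -5.52, -3.37, -3.02 and -3.02 in mutants 1 to 4. Its groups overlapped (difference -0.50, SE 0.52, adjusted p = 0.823, limma), so this probe did not check the labels. Mutant 1 stood apart across genes, and control 3 only in certain marker lists. Mutant 1 correlated less with the other arrays across genes (mean r 0.978, against 0.990 to 0.991 for the others), and control 3 read low for every tested gene of the enteric neuron and smooth muscle marker lists.

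Of the 71 genes, 54 were found in the RefSeq promoter table (build GRCm38.p6), with 70 promoters of 250 bases before to 50 bases after a start site. RFX factors bind an inverted repeat, and the letters GTTGCC, an arm of it, were searched on both strands. They occurred in 9 of the 70 member promoters (12.9%) and in 4111 of all 32851 promoters (12.5%). The members concerned were Snap91, Stx2, Stx4a, Stx7, Syt1, Unc13c, Vamp4 and Vamp8. The whole inverted repeat, searched as GTTNCC and GGNAAC with 2 bases between them, occurred in 148 of all promoters (0.45%) and in 0 of the 70. A match is a description of letters, not a binding site. The following 30-base windows show the match in capitals for members whose values are given below. They are read along the gene's strand, at chr10:109011070-109011099 (minus strand) for Syt1, chr6:72390853-72390882 (minus) for Vamp8, chr9:86880761-86880790 (minus) for Snap91 and chr10:24149144-24149173 (plus) for Stx7.
Syt1 promoter: gggctgggctccGTTGCCtgagaggagcca
Vamp8 promoter: ttggggacaaagGTTGCCcaacaaggtatc
Snap91 promoter: gagcatcctgcaGTTGCCcggcaggtatgc
Stx7 promoter: gcttcctcttctGTTGCCcatagacatcac

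The probe sequences bear directly on what some of the levels can mean. Among the 103 member probes, 13 (12.6%) held a repeat, against 1871 of 55681 probes on the array (3.36%). A repeat was counted as a run of at least 18 bases with a unit of up to 6 bases, or a stretch of 14 bases found in at least 10 of 32544 distinct promoter windows. For 7 members the tested probe itself was of this kind: Cplx2, Cplx3, Rab27b, Rab3c, Snap23, Snap25 and Unc13d. The following 30-base parts of the 60-base probes, written as on the array, show these letters in capitals. By the array's mm9 coordinates the probes lie at chr13:108816800-108816859 for Cplx2, chr2:136607709-136607768 for Snap25, chr2:120425750-120425809 for Snap23 and chr13:110850524-110850583 for Rab3c.
Cplx2 probe: AGGAGGAGGAGGAGGAGGAGGAGGAGGAGG
Snap25 probe: CACACACACACACACACACAAAgtggattt
Snap23 probe: tttaaaagATACACACACACACACACACAC
Rab3c probe: atgtTCTACAGAGTGAGTTCtaggatagca
The most frequent stretch of each probe was found in 146 promoter windows for Cplx2, in 208 for Snap25 and Snap23 and in 19 for Rab3c. Whether these probes read the named gene alone was not tested. For Cplx2 the tested probe is placed on chromosome 13 far from 3 other Cplx2 probes, which begin at 54481316, 54481348 and 54485200. A further Cplx2 probe is placed on chromosome 5, from 112438094.

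No member passed the test between mutant and control intestine. The number of members with an adjusted p under 0.05 was 0 of 64, in a comparison that called 15 of 25330 genes (0.0592%), of which 14 were lower and 1 higher in mutants. At an unadjusted p under 0.05 the count was also 0 of 64, beside 1353 of all genes (5.34%), and in 0 of 64 members were the groups free of overlap, beside 1183 genes (4.67%). The smallest unadjusted p was 0.0633, for Cplx3, and the smallest adjusted p over the members was 0.821 (limma, Benjamini-Hochberg adjustment). Lower means in mutants were found for 34 members and higher means for 30, with a median difference of -0.0078, against 0.031 over all genes. Leaving out single arrays, changing the normalisation, the background correction or the filter, or using only probes without repeats left the count of called members at 0 in each of 20 alternatives.

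The precision of these null results differed between members. For 57 of the 64 members (89.1%) the 95% interval of the difference lay within 1 log2 unit of 0, that is, within a 2-fold change, as for 89.4% of all genes. For 42 members (65.6%) it lay within 0.5 log2 units, against 59.2% of all genes. The difference itself was under 0.2 log2 units in size for 50 members and over 0.5 for 3, which were Syt10, Sv2b and Vamp7. In 58 of the 71 genes the probe was well above background on all 8 arrays, and Stx19, Syt12 and Syt2 were well above background on none. Together with Cplx4, Rims3, Syt14 and Unc13a these were the 7 genes left out of the comparison.

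**Figure D1:**
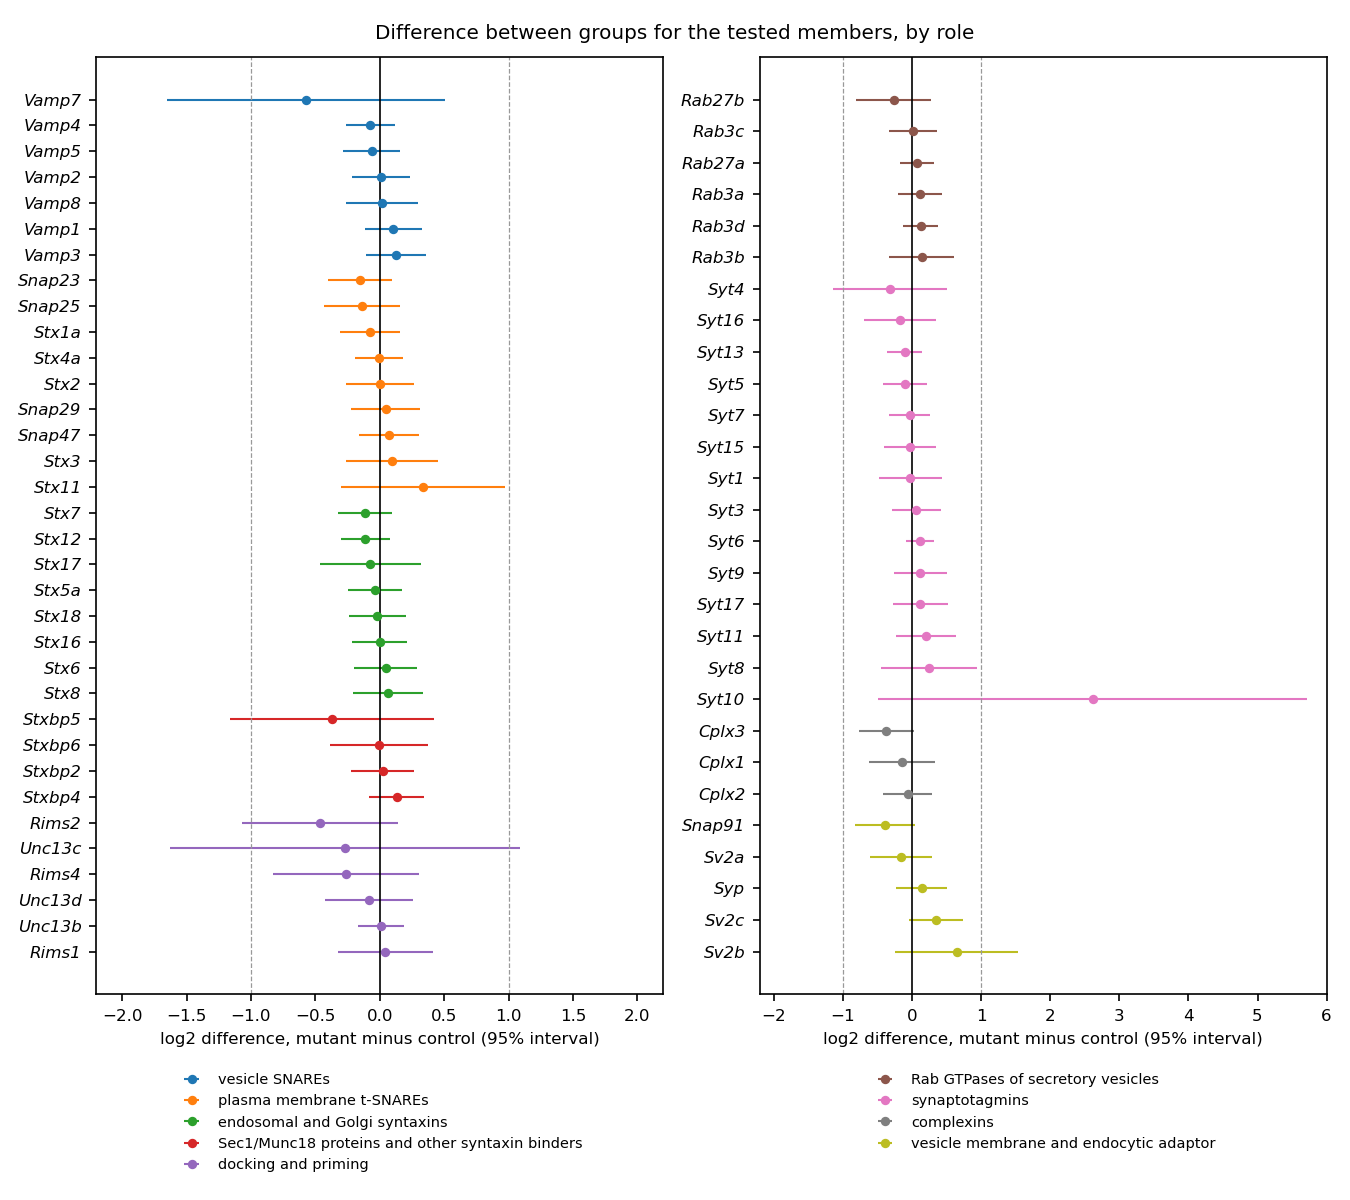
Differences between mutant and control groups for 62 of the 64 tested members, in log2 units on the x axis, with 95% intervals from limma (n = 4 arrays per group) and 1 line per gene, coloured by role. The dashed lines mark a 2-fold change; every interval includes 0, and that of Syt10 is the widest, from -0.49 to 5.72.

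Among the SNAREs of the plasma membrane, 10 of 11 genes were tested, with 5 lower and 5 higher and a median difference of -0.0035. Snap25, the Snap protein of neurons and endocrine cells, read 4.26, 4.25, 4.21 and 4.35 in controls 1 to 4 and 3.78, 4.37, 4.21 and 4.17 in mutants 1 to 4. Mutants 1, 3 and 4 lay below the lowest control, mutant 1 by the widest margin, and mutant 2 lay above the highest. The difference was -0.14 (SE 0.13, 95% interval -0.43 to 0.16). Without mutant 1 it was -0.02 (SE 0.08). Its probe, the only Snap25 probe, is the one with the CA run shown above. Stx1a, the syntaxin of neuronal and endocrine granule fusion, read -1.06, -0.75, -0.76 and -0.98 in controls and -0.92, -1.02, -0.89 and -1.02 in mutants. All 4 mutant values lay within the control range, and the difference was -0.08 (SE 0.10). Snap23, the widely expressed relative of Snap25, differed by -0.15 (SE 0.11) with the CA-run probe, or by -0.07 (SE 0.08) without mutant 1. The brightest Snap23 probe free of repeats gave -0.22 (SE 0.17), and another free of repeats gave -0.02 (SE 0.09). On the former, mutant 1 read 0.72 against 1.25 to 1.47 in mutants 2 to 4. Stx3, an apical syntaxin of epithelia, differed by 0.10 (SE 0.16), and Stx4a, which serves the basolateral side, by -0.01 (SE 0.08). Snap29 and Snap47, Snap proteins without a membrane anchor, differed by 0.05 (SE 0.12) and 0.07 (SE 0.10), and Stx2 by 0.0014 (SE 0.12). Stx11, a syntaxin of leukocyte granules, had the largest difference of this group at 0.33 (SE 0.28), and its mutant values of -5.01 to -3.54 enclosed the control values of -4.82 to -4.32.

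Of the vesicle SNAREs all 7 genes were tested, with 3 lower and 4 higher. Vamp2, the partner of Snap25 and Stx1a in neurons and endocrine cells, read 1.17, 1.48, 1.22 and 1.46 in controls and 1.35, 1.30, 1.39 and 1.32 in mutants. The mutant values fell inside the control range, with a difference of 0.01 (SE 0.10). Vamp8, a vesicle SNARE of exocrine and mucin granules and of late endosomes, read 4.199, 4.24, 4.46 and 4.27 in controls and 4.62, 4.25, 4.17 and 4.21 in mutants. Mutant 1 was the highest array, mutant 3 lay just below the lowest control, and mutants 2 and 4 lay within the control range, with a difference of 0.02 (SE 0.12). The signs of the Vamp2 and Vamp8 differences were turned by quantile normalisation, so neither has a direction. Vamp3, of recycling endosomes, differed by 0.13 (SE 0.10), Vamp1 by 0.10 (SE 0.10), Vamp4, of the Golgi and endosomes, by -0.07 (SE 0.08) and Vamp5 by -0.06 (SE 0.10).

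The 8 syntaxins of endosomes and the Golgi, which serve traffic in all cells, had the narrowest range of differences of any role, from -0.11 to 0.06. Stx7 of late endosomes read 4.09 to 4.35 in controls and 4.02 to 4.22 in mutants, with a difference of -0.11 (SE 0.09). Stx12, of endosomes, differed by -0.11 (SE 0.08), and Stx6, of the trans-Golgi network, by 0.05 (SE 0.11). Stx5a of the Golgi and Stx18 of the endoplasmic reticulum differed by -0.04 (SE 0.09) and -0.02 (SE 0.10). Stx8 of endosomes, Stx16 of the Golgi and Stx17 of autophagosomes differed by 0.06 (SE 0.12), -0.0018 (SE 0.09) and -0.07 (SE 0.17).

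**Figure D2:**
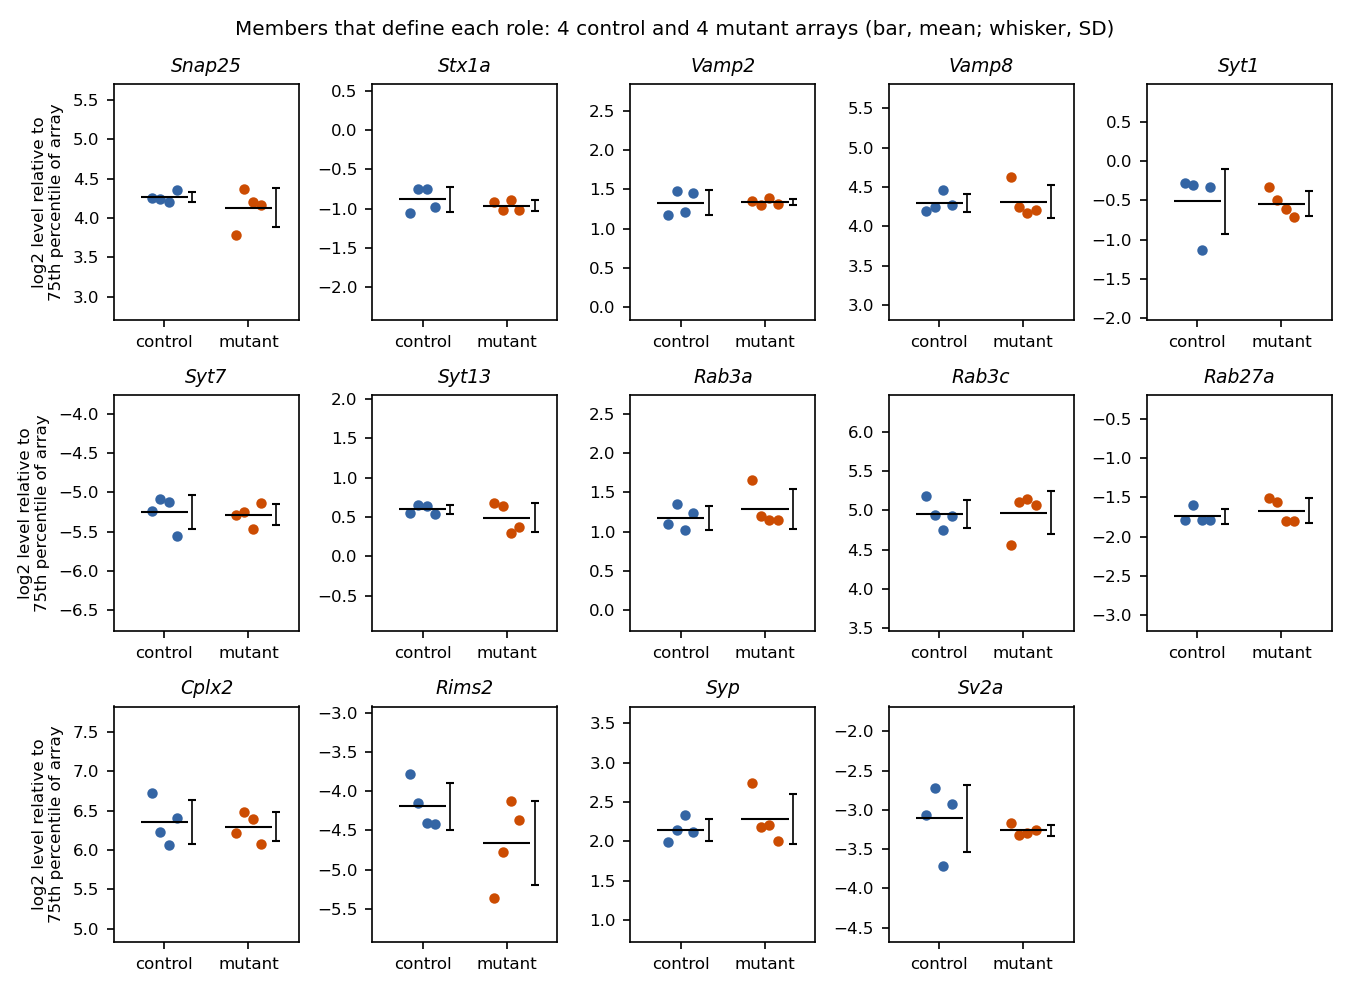
Levels of 14 members that define the roles, as log2 level with the array's 75th percentile at 0 (y axis, each panel spanning 3 log2 units) for 4 control and 4 mutant arrays; points are arrays in replicate order, the bar is the mean and the whisker the SD. Control and mutant points overlap in each panel, and the lone low point of Syt1 is control 3 at -1.14.

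Among the Sec1/Munc18 proteins and other syntaxin binders, 5 genes were tested, with differences from -0.37 to 0.13 and 0 called. Stxbp2, the Sec1/Munc18 protein of epithelia and leukocytes, differed by 0.02 (SE 0.11). Stxbp5 (tomosyn), an inhibitor of SNARE assembly, differed by -0.37 (SE 0.35), and without mutant 1, which read -5.08 against -3.74 to -3.39 in the other mutants, by 0.01 (SE 0.13). Stxbp4 and Stxbp6, syntaxin binders outside that family, differed by 0.13 (SE 0.09) and -0.0072 (SE 0.17).

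Of 8 docking and priming genes 6 were tested, and 4 had lower and 2 higher means in mutants. Unc13b (Munc13-2), a priming factor of epithelial and neuronal cells, read 1.71 to 1.79 in controls and 1.71 to 1.82 in mutants, and its difference of 0.01 (SE 0.08) had the narrowest interval of this group, -0.17 to 0.19. Rims2, a Rab3 effector of active zones and endocrine granules, read -3.78, -4.15, -4.41 and -4.42 in controls and -5.36, -4.77, -4.13 and -4.37 in mutants. Mutants 1 and 2 lay below all controls and mutants 3 and 4 inside their range, and the difference was -0.47 (SE 0.27). It was -0.23 without mutant 1, -0.10 with normexp background correction and -0.17 with the deposited table. Without mutant 3 it was -0.64 (SE 0.26), the largest in size of all alternatives. Rims1 differed by 0.04 (SE 0.16) and Rims4 by -0.26 (SE 0.25), while Unc13d, a priming factor of leukocyte granules, differed by -0.08 (SE 0.15). Unc13c had the widest interval of the group (-1.63 to 1.09), with a difference of -0.27 that was 0.37 (SE 0.30) without mutant 1, and was well above background on 2 arrays of each group. Unc13a, the main priming factor of excitatory synapses, was well above background on 1 control and 1 mutant array and was not tested.

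The Rab GTPases of secretory vesicles recruit vesicles to the release site. Rab3a, the form of synaptic vesicles and endocrine granules, read 1.09, 1.35, 1.02 and 1.23 in controls and 1.66, 1.20, 1.14 and 1.15 in mutants, so that mutant 1 was the only mutant array above the controls. Its difference of 0.11 (SE 0.14) became -0.01 without mutant 1. Rab27a, which brings Sytl and Myrip effectors to granules, read -1.79, -1.60, -1.79 and -1.79 in controls and -1.51, -1.55, -1.80 and -1.80 in mutants. Mutants 1 and 2 lay above the controls and mutants 3 and 4 just below them, with a difference of 0.07 (SE 0.11). Rab3b differed by 0.14 (SE 0.21), and Rab27b, a partner of Rab27a at granules, by -0.26 (SE 0.24) with all arrays and by -0.0024 (SE 0.09) without mutant 1. Rab3d, the form of exocrine granules, differed by 0.12 (SE 0.11), and by 0.03 (SE 0.08) without mutant 1. It read 1.30 to 1.45 in controls and 1.79, 1.41, 1.53 and 1.33 in mutants 1 to 4. Beside it, the 7 tested pancreatic acinar marker genes, of 10 listed, all had higher means in mutants, although 0 were called by limma. The listed genes Prss2, Pnlip and Ptf1a were not tested. Of the 7 tested, 4 were well above background on all 8 arrays. Cela2a was so on 0 control and 4 mutant arrays, so it was tested only because of its mutant signal. The summed linear level of the 7 genes relative to the 75th percentile was 0.913 to 2.18 in controls and 2.73 to 14.7 in mutants. Over mutants 1 to 4 the median deviation of these markers from their mean over all arrays was 0.88, -0.26, 0.87 and 2.49. The part of the acinar difference in the Rab3d value was not tested.

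For Rab3c the difference was not the same on every probe. Its brightest probe, shown above, read 5.18, 4.95, 4.75 and 4.93 in controls and 4.56, 5.11, 5.14 and 5.07 in mutants, a difference of 0.02 (SE 0.15) with overlapping groups. The probe without a repeat, at chr13:110844454-110844513 (mm9), read -1.13, -0.97, -1.26 and -0.99 in controls and -2.32, -1.39, -0.98 and -1.09 in mutants, a difference of -0.36 (SE 0.27, adjusted p = 0.828). There mutants 1 and 2 lay below all controls and mutants 3 and 4 within their range. Mutant 1 was the lowest array on both probes. Without it the brightest probe gave 0.15 (SE 0.11), and the probe without a repeat was not fitted in that way. Probe and array were therefore not told apart here.

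Complexins gave 3 tested genes, each with a lower mean in mutants. Cplx2, which clamps and promotes fusion in neurons and endocrine cells, read 6.72, 6.22, 6.07 and 6.41 in controls and 6.21, 6.49, 6.40 and 6.08 in mutants with the repeat probe, a difference of -0.06 (SE 0.16). Of the 5 Cplx2 probes 4 held a repeat of AGG or AGGAGA units. The probe without one, at chr13:54485200-54485259 (mm9), read 1.44, 1.69, 1.52 and 1.45 in controls and 1.62, 1.46, 1.67 and 1.52 in mutants. Those groups overlapped too, with a difference of 0.04 (SE 0.10), so the sign of the Cplx2 difference changed with the probe. With the repeat probe the sign also depended on the arrays, at -0.16 to 0.060 when single arrays were left out. Cplx1, the form of neurons, differed by -0.15 (SE 0.21). Cplx3, known from the retina and well above background on 3 control and 2 mutant arrays, read -5.48 to -5.16 in controls and -6.14 to -5.35 in mutants, a difference of -0.37 (SE 0.18).

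Synaptotagmins were the largest family, with 17 genes, of which 14 were tested, 7 lower and 7 higher. Syt1, the fast calcium sensor of synaptic and granule release, read -0.28, -0.31, -1.14 and -0.33 in controls and -0.33, -0.50, -0.61 and -0.72 in mutants. Control 3 was the lowest array, the other 3 controls were above all mutants, and the difference was -0.03 (SE 0.20). Syt7, the slow sensor of endocrine granules, was well above background on 3 arrays of each group, at -5.56 to -5.09 in controls and -5.47 to -5.14 in mutants, and its difference of -0.03 (SE 0.13) turned sign with the background correction. Syt13, a synaptotagmin of endocrine cells that lacks calcium binding, read 0.56, 0.65, 0.65 and 0.53 in controls and 0.67, 0.63, 0.29 and 0.37 in mutants. Mutants 3 and 4 were lower than all controls, mutant 2 was within their range and mutant 1 just above it. The difference was -0.10 (SE 0.11, 95% interval -0.35 to 0.15). Syt5 and Syt9, sensors of dense-core granules, differed by -0.10 (SE 0.14) and 0.12 (SE 0.17), and Syt11, which does not bind calcium, by 0.20 (SE 0.19), or by 0.06 (SE 0.17) without control 3 and 0.05 (SE 0.15) without mutant 1. Syt4, which is known from dense-core granules and lacks calcium binding in its first domain, differed by -0.32 (SE 0.36), by -0.61 (SE 0.31) without control 3 and by -0.10 (SE 0.36) without mutant 1. The other 6 tested, Syt3, Syt6, Syt8, Syt15, Syt16 and Syt17, had differences from -0.17 (Syt16, SE 0.23) to 0.25 (Syt8, SE 0.30).

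Syt10 stood apart in its spread. This calcium sensor of growth factor vesicles in neurons read -2.99, -5.34, 0.21 and 0.99 in controls and 0.65, 1.97, 1.84 and -1.12 in mutants, and was well above background on all 8 arrays. Controls 1 and 2 lay below all mutants, but controls 3 and 4 overlapped with mutants 1 and 4. The difference of 2.62 (SE 1.36, 95% interval -0.49 to 5.72) was the largest of the members, and its adjusted p was 0.821. Without control 2 the difference was 1.43, and without control 4 it was 3.54 (SE 1.28). These were the lowest and highest values over all alternatives. Both low controls shared row 1 of the slide with mutants 1 and 2, while controls 3 and 4 shared row 2 with mutants 3 and 4.

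Proteins of the vesicle membrane were tested for all 5 genes. Syp (synaptophysin), the standard marker of synaptic and endocrine vesicles, read 1.99, 2.14, 2.33 and 2.11 in controls and 2.75, 2.18, 2.21 and 2.00 in mutants. Mutant 1 alone exceeded the controls, and the difference of 0.14 (SE 0.16) became -0.01 without that array. Sv2a, a glycoprotein of synaptic and endocrine vesicles, read -3.07, -2.73, -3.72 and -2.92 in controls and -3.17, -3.33, -3.30 and -3.26 in mutants. The mutants lay below controls 1, 2 and 4 and above control 3, with a difference of -0.15 (SE 0.20). Sv2b, its relative, read -5.82, -5.03, -6.43 and -6.63 in controls and -4.57, -5.22, -5.82 and -5.71 in mutants, a difference of 0.65 (SE 0.39) for a probe well above background on 2 arrays of each group. It was 0.39 without mutant 1, 0.43 without control 4, 0.18 with normexp and 0.21 with the deposited table. Sv2c read -4.2027, -4.30, -4.21 and -4.54 in controls and -3.92, -4.23, -3.50 and -4.2028 in mutants, with a difference of 0.35 (SE 0.17), which was 0.20 without mutant 3, 0.22 with normexp and 0.17 with the deposited table. Over all alternatives the difference ran from 0.18 to 0.96 for Sv2b, the latter without control 2 (SE 0.33). For Sv2c it ran from 0.17 to 0.44. For Sv2b mutant 1 alone was above all controls, and for Sv2c mutants 1 and 3 were. Snap91 (AP180), an adaptor that retrieves vesicle SNAREs into clathrin coats, read -3.90, -3.92, -4.69 and -4.31 in controls and -4.46, -4.63, -4.41 and -4.87 in mutants, a difference of -0.39 (SE 0.19), which was -0.14 with normexp and -0.13 with the deposited table. Its 4 mutant values lay below controls 1, 2 and 4, and control 3 was within their range.

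Vamp7, a vesicle SNARE of lysosomes and apical carriers, had the largest negative difference, and it came from 1 array. It read 0.69, 0.81, 0.48 and 0.88 in controls and -1.51, 0.83, 0.55 and 0.69 in mutants. With mutant 1 the difference was -0.57 (SE 0.47), and without it -0.02 (SE 0.12).

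**Figure D3:**
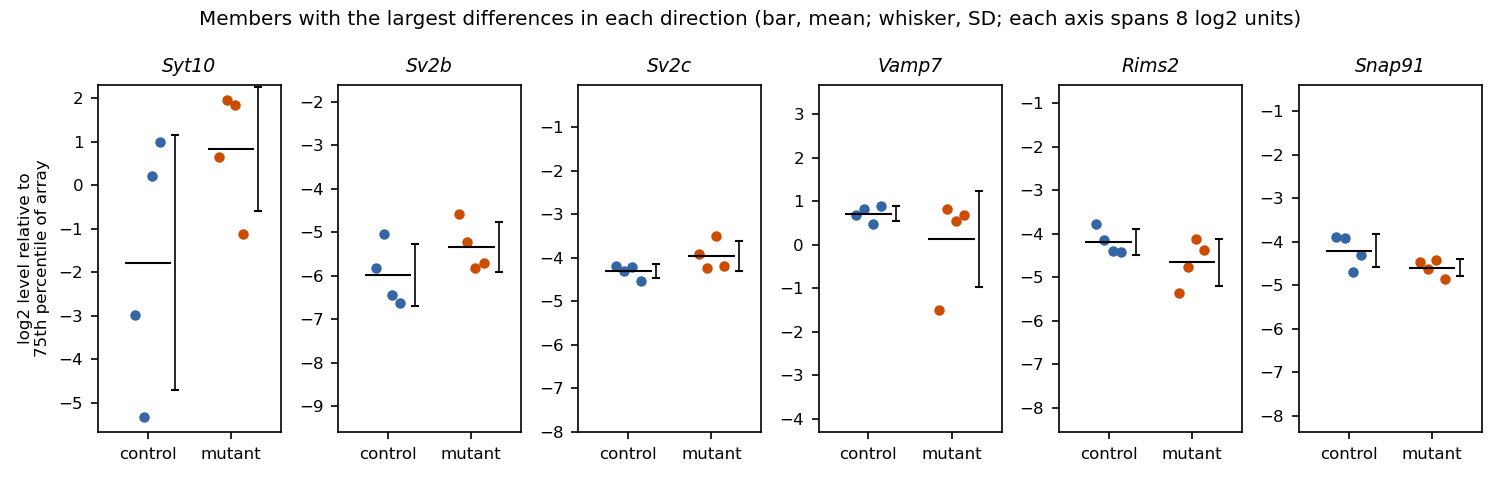
Levels of the 3 members with the largest positive and the 3 with the largest negative difference, as log2 level with the array's 75th percentile at 0 (y axis, each spanning 8 log2 units) for 4 control and 4 mutant arrays; points are arrays, the bar is the mean and the whisker the SD. Syt10 spans -5.34 to 1.97, and the low Vamp7 point is mutant 1 at -1.51.

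Control 3 lowered the control mean of a part of the machinery. It was the lowest control in 26 of 64 members (40.6%), against 26.4% of all genes. By role this held for 4 of 5 syntaxin binders, 4 of 6 Rab genes, 2 of 3 complexins and 8 of 14 synaptotagmins. Some of these deviations from the median of the other controls were small, such as -0.09 for Stxbp4 and -0.0023 for Rab27a. Control 3 was lowest in 0 of 8 endosomal and Golgi syntaxins and 2 of 6 docking and priming genes. It was lowest in 2 of 10 plasma membrane SNAREs, 2 of 7 vesicle SNAREs and 2 of 5 vesicle membrane genes. Its deviation from the median of the other controls was -1.29 for Syt4, -0.87 for Cplx1, -0.83 for Syt1 and Syt16, -0.80 for Sv2a, -0.77 for Snap91, -0.74 for Unc13c and -0.69 for Syt9. The same array was the lowest control for 13 of 13 tested enteric neuron markers, such as the RNA-binding protein gene Elavl4, and for 6 of 6 smooth muscle markers. The median deviation from the mean of all arrays was -0.55 for either list in control 3. Control 3 was also the lowest control for 5 of 6 enteric glia markers, with a median deviation of -0.07. For the 3 tested erythroid markers its median deviation was 0.62. The summed linear level of the neuron list was 13.1 to 22.6 in controls and 17.6 to 22.8 in mutants, with 13 of 14 genes well above background on all arrays, and that of the smooth muscle list was 240 to 364 and 335 to 459. Of the 12 endocrine markers 7 were lowest in control 3. Their means were lower in mutants for 8 of 12, and 2 passed the test, both lower in mutants. These were Scg2, a granin, with a difference of -1.13 (SE 0.11, adjusted p = 0.0102, limma), and the transcription factor gene Isl1 (adjusted p = 0.000833, limma). Isl1 was well above background on 4 control and 0 mutant arrays, so it was tested only because of its control signal. Bright genes contribute most to the endocrine sum, which ranged from 70.0 to 73.4 over the controls and from 62.5 to 77.3 over the mutants. Of the 8 enterocyte markers 1 was lowest in control 3, with sums of 1584 to 1744 and 1533 to 1931. The part of these cell types in the member values was not tested.

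Without control 3 the differences of the affected members were lower: Syt1 was at -0.23 (SE 0.12), Cplx1 at -0.35 (SE 0.15), Sv2a at -0.36 (SE 0.11) and Snap91 at -0.55 (SE 0.16). At an unadjusted p under 0.05 there were then 2 members (3.12%, against 4.37% of all genes), Sv2a and Snap91, and 0 were called, the smallest adjusted p being 0.849 (limma). With mutant 1 left out as well, a choice made after the values were seen, Cplx1, Snap91, Sv2a, Syt1, Syt16 and Syt5 had an unadjusted p under 0.05, which is 9.38% of the members against 6.91% of all genes in that comparison. Control 3 was the lowest control for each of these genes, so lower differences follow from leaving it out. All 6 had lower means in mutants, by 0.44 for Cplx1, 0.59 for Snap91, 0.39 for Sv2a and 0.30 for Syt1 on the log2 scale, and again 0 were called by limma (smallest adjusted p = 0.512). Snap25, read by the probe with the CA run, was at -0.04 (SE 0.08) in that comparison.

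**Figure D4:**
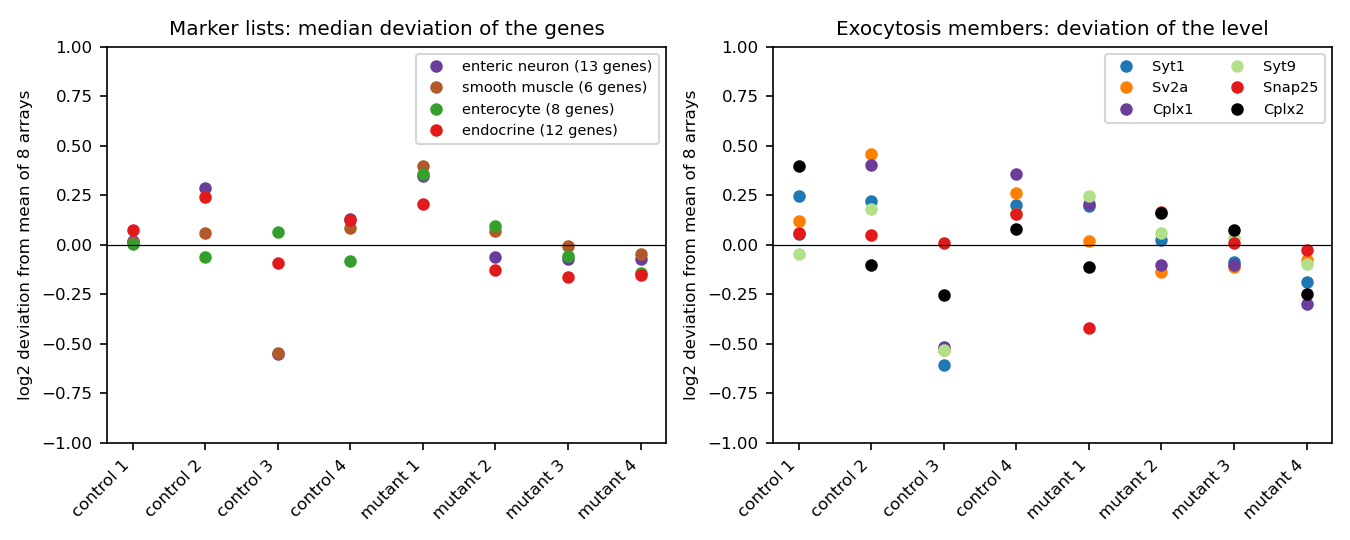
Deviation of each array from the mean of all 8 arrays, in log2 units on the y axis, with the arrays along the x axis; the left panel gives the median over the genes of 4 marker lists and the right panel 6 members. Control 3 is low at -0.55 for the enteric neuron and smooth muscle lists, whose points overlap there. It is below -0.50 for Syt1, Sv2a, Cplx1 and Syt9, while Snap25 is near 0. The Snap25 and Cplx2 points come from probes that hold a repeat, and whether these read the named gene alone was not tested.

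Mutant 1 was the highest mutant in 34 of 64 members (53.1%), a share near that of all genes (54.6%). It lay over 2-fold below the median of the other mutants in 6 members, Rab27b, Stxbp5, Syt10, Syt4, Unc13c and Vamp7, and in 2067 of 25311 genes. Array weights gave it 0.12, the lowest of the 8 arrays.

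Where a gene had several probes, they agreed on a small difference more than on its sign. Of 92 tested member probes, 0 had an unadjusted p under 0.05 by limma. Among 21 genes with several tested probes, 7 had probes of opposite sign, and the differences of a gene's probes lay over 0.3 apart for 4, which were Rab3c, Stx3, Syt15 and Syt3. The widest gap was 0.55, for Stx3, whose probe for one transcript gave -0.46 (SE 0.31) and the brightest probe 0.10 (SE 0.16).

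A list of 62 other genes of vesicle docking, fusion and recycling was examined beside the members, and 60 were tested. None was called by limma (0 of 60, smallest adjusted p = 0.676), and 4 had an unadjusted p under 0.05, beside 5.34% of all genes. Lower means were found for 29 genes and higher means for 31, with a median difference of 0.018. The groups did not overlap for 5 genes, beside 4.67% of all genes: Doc2a, Exoc1, Madd, Myrip and Syngr1. Myrip, which links Rab27a to myosin, read -3.76, -3.65, -3.77 and -3.52 in controls and -3.28, -3.45, -3.31 and -3.31 in mutants, a difference of 0.34 (SE 0.09). Madd, an exchange factor of the Rab3 proteins, read 5.54, 5.58, 5.11 and 5.45 in controls and 6.22, 5.82, 5.59 and 5.65 in mutants, a difference of 0.40 (SE 0.17). Syngr1, a vesicle membrane relative of synaptophysin, read -2.07, -1.64, -1.71 and -1.77 in controls and -2.11, -2.17, -2.45 and -2.07 in mutants, a difference of -0.40 (SE 0.13). Exoc1, an exocyst subunit, read 3.48, 3.34, 3.35 and 3.32 in controls and 3.10, 3.27, 3.24 and 2.85 in mutants, a difference of -0.25 (SE 0.11). Doc2a, a calcium-binding protein of synaptic vesicles, read -2.41, -2.48, -2.15 and -2.32 in controls and -2.49, -2.57, -2.52 and -2.58 in mutants, a difference of -0.20 (SE 0.10). In each of these 5 genes the highest array of one group came close to the lowest of the other. Cadps, a priming factor of dense-core granules, differed by 0.02 (SE 0.15), and Nsf, the ATPase that takes SNARE complexes apart, by 0.10 (SE 0.11).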

How the data were processed

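RNA of 8 embryonic small intestines was measured on 1-colour arrays, after amplification from 100 ng of total RNA, per the labels' protocols. The authors deposited linear spot intensity values from Agilent Feature Extraction 10.10.1.1, background-corrected within each array and not normalised between arrays, per the file headers (design 028005, mm9). A deposited table of intensity values had identical quartiles in all columns and served as an alternative. A single slide and a single scan held all 8 arrays.

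Processed intensity was taken as log2 minus each array's 75th percentile over 59305 non-control spots, outlier spots were left out (117 to 157 per array; 0 saturated), and spots of a probe were averaged. A probe was tested if at least 50% of its spots were well above background on at least 4 of 8 arrays, which left 35472 probes. The brightest probe per gene was kept. Names came from accessions for 26582 probes, older symbols for 492 and the files for 28607. The number of arrays limits the precision.

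The comparison used limma 3.58.1 (R 4.3.3; two-sided, no covariates, Benjamini-Hochberg over 25330 genes, threshold 0.05) and was tested on simulated data. The members, role groups and lists were chosen with earlier results of these data known. Values in every array are given for the 3 members with the largest difference in each direction and for members that define a role; for listed other genes, for up to 3 in each direction whose groups did not overlap. Results of 2 tested members are not reported here by name, although the counts include them. Other members are named by role, and the repeat probes were examined after values were seen.

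Replicate numbers are shared between groups, and correlations of same-numbered deviations were -0.09, 0.06, -0.07 and 0.09. For replicates 1, 2 and 3 a differently numbered pair correlated more, but for replicate 4 none did (at most 0.03). The numbers were not used to pair the embryos, since nothing states that they do. These correlations cannot exclude shared litters. Descriptions of mutants 2, 3 and 4 name other Rfx genes than their titles and were not used.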

Additional observations from a re-analysis of the deposited data

Results flagged for a closer look

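In 12 of 130 groups of 4 arrays, taken over Rfx6 and the tested members, 1 array lay far from the other 3 relative to the range of the group. Chance gives about 1 in 20, or 6.5 of 130. The array was mutant 1 in 10 of the 12.

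Mutant 1 was low for Rfx6 at -5.52 (other mutants -3.37 to -3.02), for Vamp7 at -1.51 (0.55 to 0.83) and for Rab3c at 4.56 (5.07 to 5.14). It was high for Rab3a at 1.66 (1.14 to 1.20), Stx18 at 1.97 (1.69 to 1.73), Stx4a at 5.10 (4.992 to 4.998), Stx5a at 4.48 (4.22 to 4.25), Stxbp2 at 4.33 (4.01 to 4.06), Vamp3 at 0.75 (0.41 to 0.43) and Vamp8 at 4.62 (4.17 to 4.25). Mutant 1 was also the highest mutant for 54.6% of all genes.

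Control 3 was low for Syt1 at -1.14, with the other controls at -0.33 to -0.28. Control 2 was high for Rab27a at -1.60, with the others at -1.79.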

How the results depend on the processing

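The number of called members was 0 under 18 other ways of processing or leaving out arrays and under 2 chosen after seeing the data, and that of the listed other genes was 0 as well. Members with an unadjusted p under 0.05 numbered 0 to 2 per alternative, except 6 without both mutant 1 and control 3 (9.38%, against 6.91% of all genes in that comparison). With the replicate block, used although nothing states that the numbers pair the embryos, they were Sv2b and Sv2c.

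Of all genes, 15 were called, against 27 with normexp background correction, 7 with the replicate block, 41 with array weights, 23 without mutant 1 and control 3 (chosen after seeing the data), and 10 to 22 when single arrays were left out. Without probes holding a repeat (also chosen after seeing the data), 16 of 24404 genes were called, and Cplx3, Snap25 and Unc13d had no tested probe.

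Among 20 members examined in this way, 43 alternative values turned sign and 353 did not, all of them short of the threshold. Quantile normalisation gave -0.00093 for Vamp2, -0.012 for Vamp8, 0.047 for Syt7 and -0.038 for Rab3c. Deposited values gave -0.020, -0.026, 0.076 and -0.060 for these genes and 0.0034 for Syt1. Array weights gave -0.046 for Vamp2, -0.055 for Vamp8, 0.0035 for Syt7, -0.025 for Rab3a and 0.034 for Cplx2. Normexp gave 0.074 for Syt7 and -0.00012 for Rab3c, and the mean of all probes gave -0.11 for Rab3c. Without both arrays the values were -0.031 for Vamp2, -0.030 for Vamp8, 0.010 for Syt7, -0.061 for Rab3a and 0.016 for Rfx6. Without repeat probes they were -0.36 for Rab3c and 0.042 for Cplx2. Leaving out single arrays gave -0.043 to 0.059 for Vamp2, -0.087 to 0.074 for Vamp8, -0.23 to 0.050 for Syt1, -0.13 to 0.030 for Syt7 and -0.0100 to 0.17 for Rab3a. It gave -0.051 to 0.15 for Rab3c, -0.16 to 0.060 for Cplx2, -0.014 to 0.23 for Syp and -0.73 to 0.099 for Rfx6. The cause of the sign changes was not tested, beyond the array or probe left out.

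Signal over background left 7 members untested, of which 3 were synaptotagmins and 2 were docking and priming genes.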

Other observations

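A transcript outside the machinery had a pattern over arrays close to that of Syt10, and it was chosen after its values were seen. The probe named EU616813 (chr12:110968992-110969051, mm9) read -1.99, -2.33, 0.11 and 0.52 in controls and 0.59, 1.59, 1.46 and -0.97 in mutants. Controls 1 and 2 were low and mutants 2 and 3 high in both, and mutant 4 was the lowest mutant in both.

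Stxbp3, a Sec1/Munc18 gene named outside the rule by the array, read 2.17, 2.18, 2.30 and 2.16 in controls and 1.28, 2.11, 2.07 and 2.23 in mutants, with a difference of -0.28 (SE 0.20). Mutant 1 was the lowest array.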
